A study of Homo sapiens with 24 samples.

Results

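The genes described here are 10 regulators of the G1 phase of the cell cycle, named by a list of D cyclins, cyclin-dependent kinases (CDKs), CDK inhibitors and the retinoblastoma gene. They are *CCND1*, *CCND3*, *CDK2*, *CDK4*, *CDK6*, *CDKN1B*, *CDKN1C*, *CDKN2C*, *CDKN2D* and *RB1*. A gene was read from probe sets that list only its symbol, taking the brightest of them on average, which gave 8 of the 10 genes among 12165 genes in all. The 3 *CDK2* probe sets also list a second gene and no probe set is paired with *CDKN2C* in the annotation used, so these 2 genes were not analysed here.

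RNA of 4 human cell lines from acute myeloid leukemia (AML) was profiled on 24 Affymetrix arrays of 1 colour. MOLM-14 carries an MLL fusion and an activated FLT3 receptor. By their usual description KG-1 is like early myeloblasts, HL-60 like promyelocytes and U937 like monocytic cells. The marker levels given at the end of these results did not follow these names in each line. Each line was cultured for 24 h with 4 µM R406 or with its solvent, dimethyl sulfoxide (DMSO), in triplicate, which makes 8 groups of 3 arrays. R406 is the active form of fostamatinib, an inhibitor of the tyrosine kinase SYK that also acts on other kinases. Each line stands for 1 leukemia, and the vehicle and inhibitor groups of a line share its genetic background. The p-values rest on 1 estimate per gene of the spread between replicates, pooled over the 8 groups of 3. A call in 1 line thus also depends on the spread in the other lines.

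Entry into S phase is set in G1. D cyclins bind CDK4 and CDK6, cyclin E binds CDK2, and these kinases phosphorylate the retinoblastoma protein, which otherwise holds E2F transcription factors in check. Inhibitors of the INK4 family, such as the p18 product of *CDKN2C* and the p19 product of *CDKN2D*, bind CDK4 and CDK6, while the CIP/KIP inhibitors p27 (*CDKN1B*) and p57 (*CDKN1C*) bind cyclin-CDK complexes more widely. In blood cells D cyclins respond to growth factor signals, and p27 and p57 are known for their link to quiescence.

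Values are probe set intensities from robust multi-array average (RMA) processing on a linear scale. A difference is R406 minus DMSO on the log2(intensity + 1) scale with its standard error (SE), which understates the change of dim probe sets, and a gene was called, or said to have risen or fallen, at a limma Benjamini-Hochberg adjusted p under 0.05 over all 12165 genes. Probe sets differ in brightness, so levels are compared within a gene only. No detection calls were used, and the DMSO intensities of *CDKN1C* (6.92 to 12.5) lay below the array medians of 19.1 to 21.4.

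With R406, calls among these genes were most numerous in MOLM-14 and fewest in U937. The largest differences in MOLM-14 and KG-1 were the rise of the inhibitor gene *CDKN1C* and the fall of the kinase gene *CDK4*. MOLM-14 had 4 of the 8 genes higher and 4 lower, against 56.2% of all genes called (31.1% higher and 25.0% lower). KG-1 had 3 higher and 2 lower, against 44.5% of all genes (23.6% higher and 20.9% lower). HL-60 also had 3 higher and 2 lower, against 15.2% (7.19% higher and 7.97% lower). U937 had 2 higher and 0 lower, against 11.5% (6.12% higher and 5.43% lower). The median absolute difference of the 8 genes was 0.63 in MOLM-14, where the median over all genes was 0.29. It was 0.67 against 0.20 in KG-1, 0.38 against 0.11 in HL-60 and 0.088 against 0.099 in U937. Signed medians were small, at 0.067 in MOLM-14 (all genes 0.068), 0.13 in KG-1 (0.020), 0.089 in HL-60 (-0.0029) and 0.00034 in U937 (0.0027), with rises beside falls in each line but U937. The arrays of the 2 groups did not overlap for 7 of the 8 genes in MOLM-14 (57.8% of all genes), 6 in KG-1 (49.8%), 6 in HL-60 (32.8%) and 3 in U937 (34.0%).

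**Figure D1:**
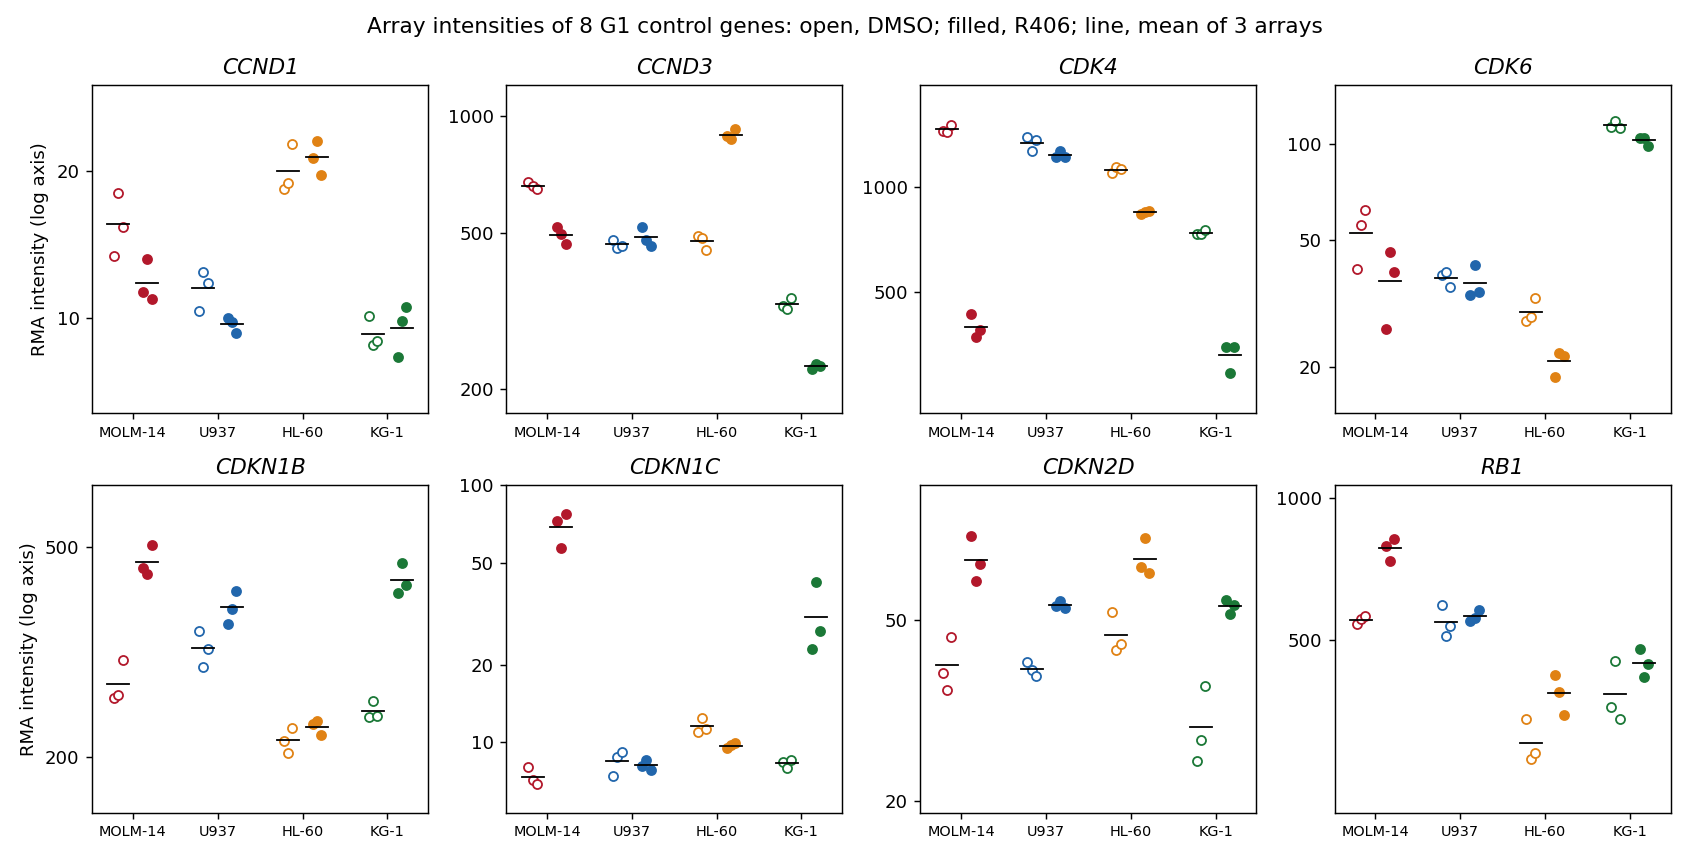
RMA intensity (log axis) of each of the 8 genes in every array, by cell line; open circles are DMSO, filled circles R406 and lines the means of 3 arrays. CDK4 is lower with R406 in MOLM-14, HL-60 and KG-1, CDKN1C is higher in MOLM-14 and KG-1, and CCND3 goes up in HL-60 while it goes down in MOLM-14 and KG-1.

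The promoters of 3 genes that moved together or apart are shown first. *CDK4* is the kinase that fell in 3 lines, *CDKN1B* the inhibitor that rose in 3 lines and *CDKN2D* the inhibitor that rose in all 4. Sequences are RefSeq windows of GRCh38.p14, from 250 bases before to 50 after the annotated start, on the strand of the gene, and 7 of the 10 genes had an entry in that table. The windows lie at chr12:57752261-57752560 (minus strand) for *CDK4*, chr12:12717118-12717417 (plus strand) for *CDKN1B* and chr19:10568930-10569229 (minus strand) for *CDKN2D*. Capitals mark matches, on either strand, to an E2F motif (TTTNNCGC) or to an E-box (CACGTG), the sequence bound by MYC and its partners.
CDK4: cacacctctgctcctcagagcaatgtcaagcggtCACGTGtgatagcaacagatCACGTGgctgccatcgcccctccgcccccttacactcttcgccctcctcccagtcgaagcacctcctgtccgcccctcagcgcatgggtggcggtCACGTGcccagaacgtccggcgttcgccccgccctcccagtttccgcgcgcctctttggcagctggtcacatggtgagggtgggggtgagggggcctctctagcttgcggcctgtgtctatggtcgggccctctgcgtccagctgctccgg
CDKN1B: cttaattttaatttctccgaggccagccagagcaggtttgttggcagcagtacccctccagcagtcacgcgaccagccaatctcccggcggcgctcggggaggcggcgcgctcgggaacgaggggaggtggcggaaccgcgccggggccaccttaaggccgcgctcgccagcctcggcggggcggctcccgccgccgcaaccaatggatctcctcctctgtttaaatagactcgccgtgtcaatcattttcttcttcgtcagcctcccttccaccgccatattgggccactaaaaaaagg
CDKN2D: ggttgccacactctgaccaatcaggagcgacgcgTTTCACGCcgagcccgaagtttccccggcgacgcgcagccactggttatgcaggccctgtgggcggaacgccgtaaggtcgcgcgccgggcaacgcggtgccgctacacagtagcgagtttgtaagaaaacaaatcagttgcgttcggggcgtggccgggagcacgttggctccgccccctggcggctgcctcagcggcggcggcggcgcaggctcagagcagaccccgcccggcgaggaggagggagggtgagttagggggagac
The *CDK4* window held 3 E-boxes, beginning 216, 196 and 101 bases before the start. At least 1 E-box was found in 7.26% of the 35116 promoters of the table, and 33 of them (0.094%) held at least 3. That count of 3 was taken from the *CDK4* window itself, so the 0.094% is a description only. The *CDKN2D* window held 1 E2F match, 216 bases before the start, as did 6.89% of promoters at any position. A FOXO motif (GTAAACA, in 3.42% of promoters) and a cell cycle homology region (TTTGAA, in 15.2%) were also searched, and *CDKN1B* had no match to any of the 4 motifs in this window. Windows not shown had matches as well. A *CCND3* window held a FOXO match 2 bases before its start, and a *CDK6* window an E-box 30 bases after its start. Windows of *CDKN2C* held E-boxes 220 and 69 bases before their starts. These matches are descriptions of the letters, and binding was not measured.

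Of the D cyclins, *CCND3* showed opposite changes in different lines. Cyclin D3 is a partner of CDK4 and CDK6 that is prominent in blood cells. *CCND3* read 678, 661 and 649 in MOLM-14 with DMSO and 519, 499 and 471 with R406. KG-1 gave 325, 319.9 and 341 with DMSO and 225, 231 and 229 with R406. In both lines every R406 array was below every DMSO array. HL-60 arrays read 493, 487 and 453 with DMSO and 889.7, 871 and 925 with R406, so here all R406 arrays were higher. U937 read 482, 459.5 and 464 against 519, 481 and 466, with overlapping groups. *CCND3* thus fell in MOLM-14 (-0.42 ± 0.060, adjusted p = 2.36e-06) and KG-1 (-0.52 ± 0.060, adjusted p = 1.29e-07). It rose in HL-60 by 0.90 ± 0.060, which is 1.87-fold (adjusted p = 4.66e-10), and was not called in U937 (0.059 ± 0.060, adjusted p = 0.660). The opposite changes left a mean over the 4 lines of 0.0058 ± 0.030 (adjusted p = 0.896).

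*CCND1*, cyclin D1, was dim in all 4 lines, and only MOLM-14 had a call. *CCND1* read 13.4, 17.98 and 15.3 with DMSO and 11.3, 13.2 and 11.0 with R406 in MOLM-14, a fall of -0.37 ± 0.11 (adjusted p = 0.00553). U937 arrays read 10.3, 12.4 and 11.8 against 10.0, 9.81 and 9.32. The U937 groups did not overlap, but the difference of -0.22 ± 0.11 was not called (adjusted p = 0.233). HL-60 had 18.3 to 22.7 with DMSO and 19.6 to 23.1 with R406, and KG-1 had 8.80 to 10.1 and 8.30 to 10.5. Both pairs of groups overlapped, with differences of 0.092 ± 0.11 and 0.033 ± 0.11. The MOLM-14 call was lost without DMSO replicate 2 (-0.26, adjusted p = 0.0540). A second *CCND1* probe set, near the floor at 7.84 with DMSO and 4.96 with R406, also fell in MOLM-14 (-0.58 ± 0.14, adjusted p = 0.00170 over 19724 probe sets).

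Of the kinases, *CDK4* had the larger falls in MOLM-14 and KG-1. It read 1442, 1432 and 1505 in MOLM-14 with DMSO and 432, 370 and 389 with R406. KG-1 had 729, 730.1 and 752 with DMSO and 347, 291 and 346 with R406. The R406 arrays were well below all DMSO arrays in both lines. HL-60 arrays gave 1090.0, 1136 and 1119.95 with DMSO and 835, 844 and 850.5 with R406, also without overlap. U937 arrays gave 1387, 1261 and 1360.02 against 1212, 1265 and 1218, and here the groups overlapped. *CDK4* fell in MOLM-14 (-1.88 ± 0.070, 3.68-fold, adjusted p = 5.01e-16) and in KG-1 (-1.17 ± 0.070, 2.25-fold, adjusted p = 4.72e-12). It fell less in HL-60 (-0.40 ± 0.070, 1.32-fold, adjusted p = 0.000262), and the difference in U937 was -0.12 ± 0.070 (adjusted p = 0.364). The size of the *CDK4* difference exceeded that of 96.1% of all genes in MOLM-14, 94.8% in KG-1, 92.1% in HL-60 and 56.3% in U937.

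*CDK6*, the other D cyclin kinase, was called lower in MOLM-14 and HL-60. *CDK6* read 40.6, 55.6 and 62.0 with DMSO and 26.4, 45.8 and 39.7 with R406 in MOLM-14, where the groups overlapped. HL-60 gave 28.0, 28.7 and 33.0 with DMSO and 18.7, 22.2 and 21.8 with R406, with no overlap. It fell in MOLM-14 (-0.50 ± 0.15, adjusted p = 0.00646) and in HL-60 (-0.50 ± 0.15, adjusted p = 0.0265). KG-1 read 113, 117 and 112 against 105, 104 and 98.6, without overlap but not called (-0.15 ± 0.15, adjusted p = 0.471). U937 had 35.6 to 39.8 with DMSO and 33.7 to 41.7 with R406 (-0.059 ± 0.15). Both calls depended on which arrays were in the fit. In MOLM-14 the call was lost without DMSO replicate 3 (-0.38, adjusted p = 0.0541), without R406 replicate 1 (-0.28, adjusted p = 0.0790), and with only the MOLM-14 arrays in the fit (adjusted p = 0.0916). In HL-60 it was lost without DMSO replicate 2 (-0.52, adjusted p = 0.0512) or 3 (-0.43, adjusted p = 0.118), without R406 replicate 1 (-0.42, adjusted p = 0.119) or 3 (-0.53, adjusted p = 0.0503), and with a pseudocount of 16 (-0.31, adjusted p = 0.0577). The mean over the 4 lines was -0.30 ± 0.075 (adjusted p = 0.00146).

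Of the CIP/KIP inhibitors, *CDKN1C* had the largest rise of the 8 genes. *CDKN1C* read 7.99, 7.14 and 6.92 in MOLM-14 with DMSO and 72.5, 56.8 and 77.3 with R406. KG-1 gave 8.37, 7.99 and 8.57 with DMSO and 23.0, 41.9 and 27.2 with R406. The R406 arrays of both lines were thus far above dim DMSO arrays. U937 read 7.43, 8.76 and 9.20 against 8.12, 8.53 and 7.85, with overlap. HL-60 gave 10.9, 12.5 and 11.2 against 9.48, 9.75 and 9.95, which did not overlap and lay in the other direction. The rise was 3.05 ± 0.14 in MOLM-14 (8.30-fold, adjusted p = 1.85e-14) and 1.72 ± 0.14 in KG-1 (3.30-fold, adjusted p = 7.67e-10). Neither U937 (-0.042 ± 0.14, adjusted p = 0.928) nor HL-60 (-0.22 ± 0.14, adjusted p = 0.359) was called. A smaller absolute difference was found for 99.3% of all genes in MOLM-14 and for 98.7% in KG-1. The KG-1 value was 1.48 without R406 replicate 2, whose *CDKN1C* intensity of 41.9 was the highest of that group.

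**Figure D2:**
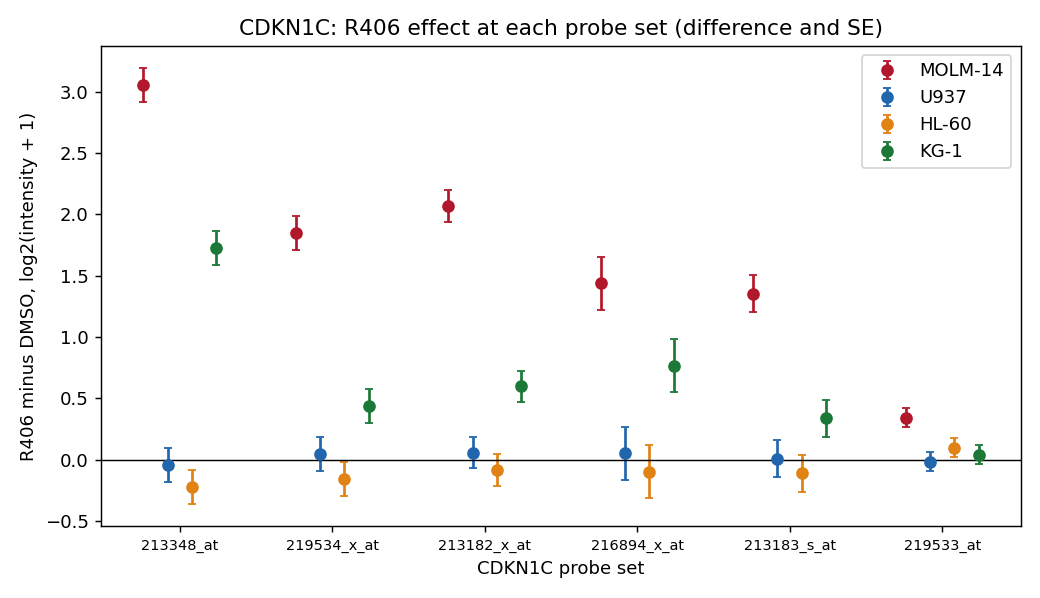
R406 minus DMSO for each of the 6 CDKN1C probe sets on the log2(intensity + 1) scale, by cell line, with SE bars. All 6 are above 0 in MOLM-14, from 0.34 to 3.05, while KG-1 runs from 0.041 to 1.72 and U937 and HL-60 stay near 0.

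The size of the *CDKN1C* change depended on the probe set. All 6 probe sets of the gene were called higher in MOLM-14, with differences from 0.34 to 3.05. In KG-1, 4 of the 6 were called higher, and 2 dim ones were not (0.34, adjusted p = 0.0809, and 0.041, adjusted p = 0.752, over 19724 probe sets). Apart from the probe set that stands for the gene, those called in KG-1 carry the suffix x_at, so they can bind other transcripts. None of the 6 was called in U937 or HL-60. With the mean of the 6 probe sets in place of the highest, KG-1 rose by 0.65 and MOLM-14 by 1.68. A pseudocount of 16 gave 0.92 and 1.85 for these lines, and both calls held.

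*CDKN1B*, which encodes p27, rose in MOLM-14, KG-1 and U937. *CDKN1B* read 259, 262 and 305 with DMSO and 456, 443 and 503 with R406 in MOLM-14. KG-1 gave 239, 256 and 239 with DMSO and 408, 465 and 423 with R406. In both lines all R406 arrays were above all DMSO arrays. U937 read 347, 296 and 320.5 against 358, 381 and 413, a narrower gap without overlap. HL-60 read 215, 204 and 228 against 231, 234 and 220.0, with overlap. The rise was 0.76 ± 0.081 in MOLM-14 (1.70-fold, adjusted p = 2.60e-08), 0.82 ± 0.081 in KG-1 (1.76-fold, adjusted p = 1.61e-08) and 0.26 ± 0.081 in U937 (1.20-fold, adjusted p = 0.0412). HL-60 was not called (0.085 ± 0.081, adjusted p = 0.605). The U937 call was lost without U937 DMSO replicate 2 (0.20, adjusted p = 0.203) or 3 (0.26, adjusted p = 0.102), U937 R406 replicate 2 (0.26, adjusted p = 0.0947) or 3 (0.20, adjusted p = 0.196), or HL-60 R406 replicate 1 (0.26, adjusted p = 0.05001). It was also lost with median centring (0.22, adjusted p = 0.0871) and with only the U937 arrays in the fit (0.26, adjusted p = 0.0629).

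*CDKN2D*, the INK4 inhibitor p19, was the only one of the 8 genes that rose in all 4 lines. Of all 12165 genes, 346 (2.84%) were called in the same direction in all 4 lines. *CDKN2D* read 38.2, 35.1 and 46.0 with DMSO and 76.4, 60.9 and 66.6 with R406 in MOLM-14. KG-1 gave 24.5, 27.2 and 35.7 with DMSO and 55.5, 51.5 and 53.9 with R406. Neither line had overlapping arrays, and the same held for the other 2. U937 read 40.5, 38.8 and 37.7 against 53.8, 55.0 and 53.3, and HL-60 52.0, 42.9 and 44.3 against 65.6, 75.8 and 63.4. The rises were 0.76 ± 0.12 in MOLM-14 (adjusted p = 5.87e-06), 0.46 ± 0.12 in U937 (adjusted p = 0.0111), 0.55 ± 0.12 in HL-60 (adjusted p = 0.00198) and 0.87 ± 0.12 in KG-1 (adjusted p = 1.28e-06). The mean over the lines was 0.66 ± 0.058, 1.58-fold. A second, very dim *CDKN2D* probe set (5.30 to 6.27 in group means) was called in KG-1 alone (0.20 ± 0.076, adjusted p = 0.0348). With the mean of both probe sets the rises were 0.54 in KG-1, 0.46 in MOLM-14, 0.31 in HL-60 and 0.25 in U937, and all 4 calls held.

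*RB1*, the gene of the retinoblastoma protein that these kinases phosphorylate, rose in MOLM-14 and HL-60. *RB1* read 541, 553 and 561 with DMSO and 790.1, 733 and 819.7 with R406 in MOLM-14. HL-60 gave 339, 279.8 and 288 against 422, 388 and 346. Both were without overlap, though the HL-60 groups nearly touched. KG-1 read 361, 452 and 341 against 478, 418 and 446, and U937 592, 509 and 534 against 547, 556 and 579, both with overlap. The rise was 0.50 ± 0.098 in MOLM-14 (1.41-fold, adjusted p = 0.000131) and 0.35 ± 0.098 in HL-60 (adjusted p = 0.0162). KG-1 (0.23 ± 0.098, adjusted p = 0.0667) and U937 (0.043 ± 0.098, adjusted p = 0.882) were not called. The HL-60 call was lost without DMSO replicate 2 (0.30, adjusted p = 0.0879) or 3 (0.32, adjusted p = 0.0707) and without R406 replicate 1 (0.28, adjusted p = 0.0992) or 2 (0.34, adjusted p = 0.0518). In KG-1 a call was gained with repeated quantile normalization (0.25, adjusted p = 0.0347), with the dimmest genes left out (adjusted p = 0.0477), with a trended robust variance (adjusted p = 0.0344), and without DMSO replicate 2 (0.35, adjusted p = 0.00462) or R406 replicate 2 (0.27, adjusted p = 0.0481), and the value was 0.14 without DMSO replicate 3. A second *RB1* probe set (13.4 to 22.0 in group means) was called in no line. With the mean of both, MOLM-14 had 0.28 (adjusted p = 0.00640) and HL-60 0.24 (adjusted p = 0.0633).

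**Figure D3:**
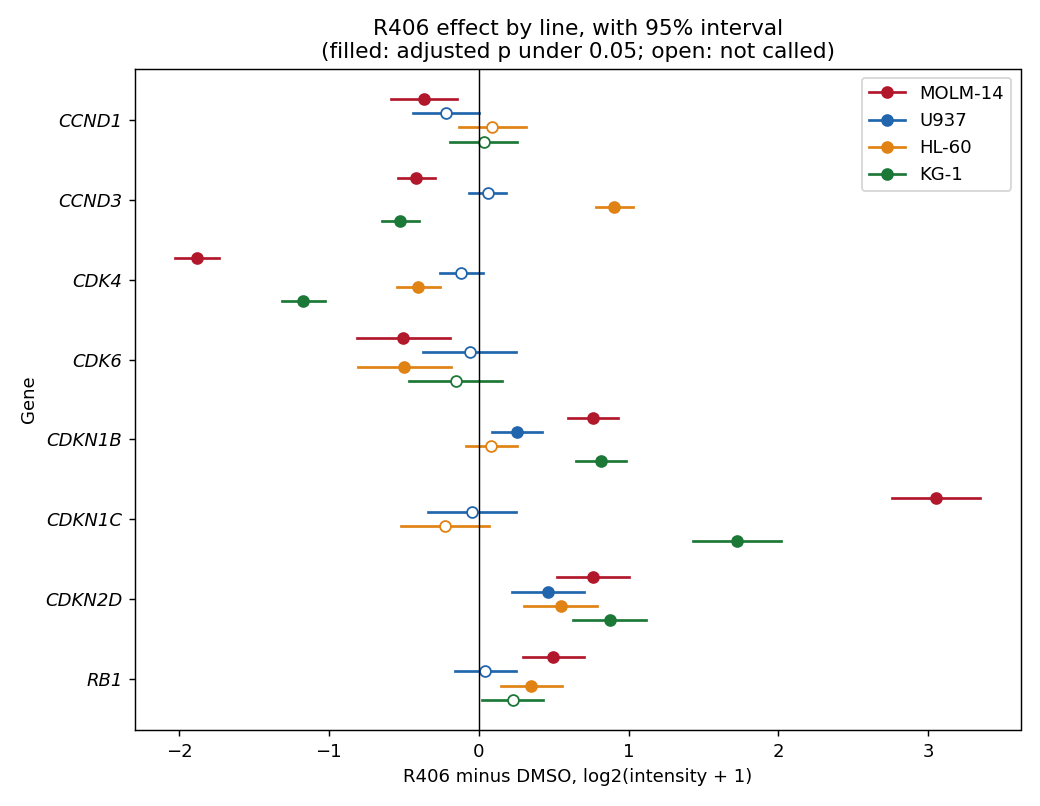
R406 minus DMSO of each gene by cell line on the log2(intensity + 1) scale, with 95% intervals; filled points were called at an adjusted p under 0.05 and open points were not. CDK4 and CDKN1C spread most between lines, and CDKN2D is to the right of 0 in all 4.

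Over the 4 lines and 8 genes, 12 of the 32 differences were rises, 8 were falls and 12 were not called, while 31.8% of the tests of all genes in the 4 lines were called. For the equal-weight mean of the lines, 4 genes rose and 2 fell, where 53.1% of all genes were called (29.1% higher and 24.0% lower). These were *CDKN1C* (1.13 ± 0.070), *CDKN2D* (0.66 ± 0.058), *CDKN1B* (0.48 ± 0.041) and *RB1* (0.28 ± 0.049) upward, and *CDK4* (-0.89 ± 0.035) and *CDK6* (-0.30 ± 0.075) downward. *CCND1* (-0.11 ± 0.053, adjusted p = 0.0769) and *CCND3* were not called. The *CCND1* mean was called with repeated quantile normalization (-0.16, adjusted p = 0.0141), with median centring (-0.14, adjusted p = 0.0363), and without MOLM-14 DMSO replicate 1 (-0.14, adjusted p = 0.0286), MOLM-14 R406 replicate 2 (-0.13, adjusted p = 0.0391), U937 DMSO replicate 1 (-0.13, adjusted p = 0.0463) or KG-1 R406 replicate 3 (-0.13, adjusted p = 0.0469).

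The R406 effect differed between lines for 6 of the 8 genes by a moderated F test, as it did for 54.9% of all genes. The widest range was that of *CDKN1C*, 3.28 between MOLM-14 and HL-60 (adjusted p = 6.45e-12), then *CDK4*, 1.76 between MOLM-14 and U937 (adjusted p = 3.77e-12), and *CCND3*, 1.43 between HL-60 and KG-1 (adjusted p = 7.84e-12). *CDKN1B* ranged over 0.73 (adjusted p = 8.30e-06). The tests for *CCND1* (0.46, adjusted p = 0.0376) and *RB1* (0.46, adjusted p = 0.0426) were close to the threshold. The *CCND1* call was lost without any 1 of 15 of the 24 arrays (adjusted p from 0.0509 to 0.0968) and the *RB1* call without any 1 of 14 (adjusted p from 0.0513 to 0.111). Neither *CDK6* (0.44, adjusted p = 0.154) nor *CDKN2D* (0.41, adjusted p = 0.120) was called. That does not show equal effects: the interval of the *CDKN2D* difference between U937 and KG-1 was -0.76 to -0.070 (adjusted p = 0.0595), and without KG-1 DMSO replicate 3 *CDKN2D* was called (0.56, adjusted p = 0.0117). *CDK6* was called without MOLM-14 DMSO replicate 1 (0.62, adjusted p = 0.0327) or MOLM-14 R406 replicate 2 (0.61, adjusted p = 0.0387).

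Pairs of lines were compared next. The R406 effect of MOLM-14 differed from that of U937 for 5 of the 8 genes (43.8% of all genes), from that of HL-60 for 5 (45.3%) and from that of KG-1 for 3 (33.5%). KG-1 differed from U937 for 4 (33.3%) and from HL-60 for 4 (35.7%). The lines with the larger changes, MOLM-14 and KG-1, differed in *CDK4* (MOLM-14 minus KG-1 -0.71 ± 0.098, adjusted p = 5.85e-06), *CDKN1C* (1.33 ± 0.20, adjusted p = 1.60e-05) and *CCND1* (-0.40 ± 0.15, adjusted p = 0.0462). The *CDKN1B* effects of the 2 lines were not distinguished (-0.054, 95% interval -0.29 to 0.18, adjusted p = 0.765), nor were those of *CCND3* (0.11, 95% interval -0.068 to 0.28, adjusted p = 0.370). HL-60 and KG-1 were furthest apart for *CCND3*, by 1.43 ± 0.084 (adjusted p = 2.31e-11). Between U937 and HL-60, where 7.23% of all genes were called, *CCND3* was the only one of the 8 genes that differed (-0.85 ± 0.084, adjusted p = 4.99e-07).

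With DMSO alone, all 8 genes differed between the lines by the F test, as did 68.1% of all genes. Between 4 and 7 of the 8 genes differed in each pair of lines: 4 between MOLM-14 and U937 (47.0% of all genes), 7 between MOLM-14 and HL-60 (46.1%), 6 between MOLM-14 and KG-1 (51.2%), 5 between U937 and HL-60 (48.2%), 7 between U937 and KG-1 (50.9%) and 7 between HL-60 and KG-1 (48.7%). *CDK6* had the widest range. It was 2.17-fold higher in KG-1, at 114 ± 3.00 (SD, n = 3), than in MOLM-14, at 52.7 ± 11.0, with U937 at 38.1 ± 2.22 and HL-60 at 29.9 ± 2.73. U937 and HL-60 did not differ beyond their spread (adjusted p = 0.0660). *CDK4* had the reverse low end, with KG-1 lowest at 737 ± 13.1, below HL-60 at 1115 ± 23.3 (adjusted p = 1.24e-07). MOLM-14, at 1460 ± 39.2, and U937, at 1336 ± 66.0, were highest and not separated (adjusted p = 0.145). *CCND3* ran from MOLM-14 (663 ± 14.6) over HL-60 (478 ± 21.3) and U937 (468 ± 11.99) to KG-1 (329 ± 11.2), with HL-60 and U937 not separated (adjusted p = 0.760). The order for *CCND1* was HL-60 (19.97 ± 2.40), MOLM-14 (15.6 ± 2.31), U937 (11.5 ± 1.07) and KG-1 (9.29 ± 0.694), each step called.

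The DMSO levels of the inhibitors and *RB1* had narrower ranges, from 0.57 for *CDKN1B* to 0.87 for *RB1*, against 1.90 for *CDK6*. *CDKN1B* was highest in U937 at 321 ± 25.4 (adjusted p = 0.0278 against MOLM-14), and the steps from MOLM-14 (276 ± 25.8) to KG-1 (245 ± 9.65) to HL-60 (215 ± 11.7) were not called. MOLM-14 was nevertheless above HL-60 for this gene, by 0.35 (adjusted p = 0.000910). *CDKN1C* was highest in HL-60 at 11.6 ± 0.811, above U937 at 8.46 ± 0.919 (adjusted p = 0.0189), with KG-1 (8.31 ± 0.292) and MOLM-14 (7.35 ± 0.565) not separated from U937 or from each other. Its F test was lost with a pseudocount of 16 (adjusted p = 0.165) and with the mean of its probe sets (adjusted p = 0.183). *CDKN2D* was lowest in KG-1 at 29.1 ± 5.88 (adjusted p = 0.00367 against U937), and HL-60 (46.4 ± 4.92), MOLM-14 (39.7 ± 5.64) and U937 (39.0 ± 1.41) were not separated. *RB1* was high in MOLM-14 (552 ± 9.88) and U937 (545 ± 42.3), which were not separated, then came KG-1 (384 ± 59.1) and HL-60 (302 ± 32.4), each step called.

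**Figure D4:**
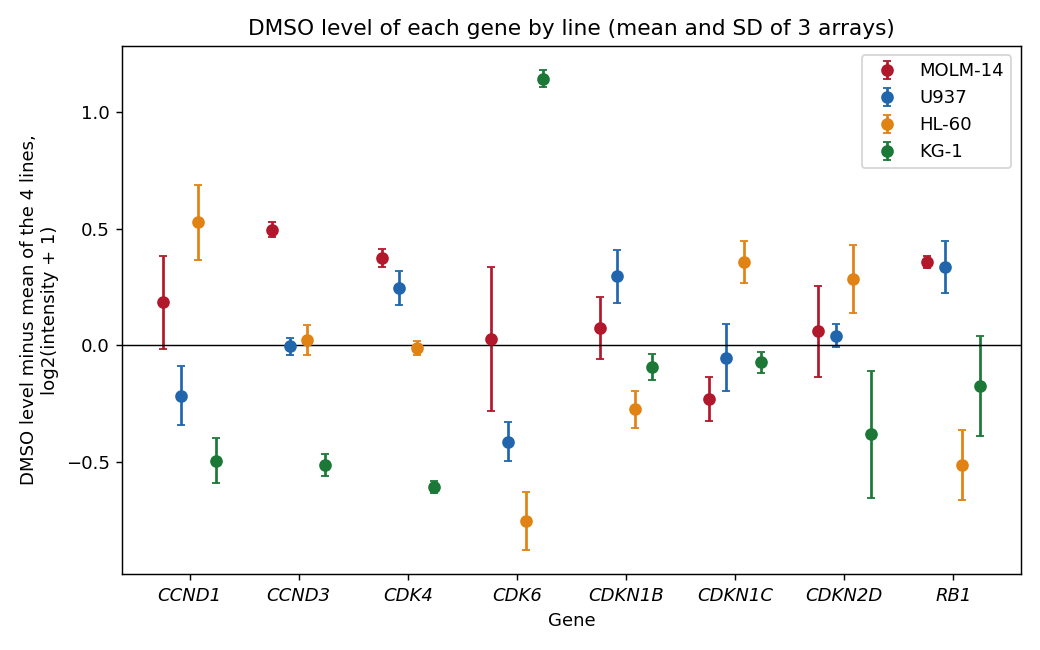
DMSO level of each gene in each line, as the difference from the mean of the 4 lines on the log2(intensity + 1) scale; points are means and bars the SD of 3 arrays. CDK6 is highest in KG-1, where CCND1, CCND3, CDK4 and CDKN2D are lowest.

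Other genes of the G1 pathway were counted from 6 lists, to be read against the shares of all genes called in each line: 31.1% higher and 25.0% lower in MOLM-14, 23.6% and 20.9% in KG-1, 7.19% and 7.97% in HL-60, and 6.12% and 5.43% in U937. In these cultures, fewer cells in a phase of the cycle and less RNA per cell cannot be told apart. Of 11 other cyclins, CDKs and inhibitors of G1 and S phase, 4 rose and 6 fell in MOLM-14 (median -1.24), 2 rose and 6 fell in KG-1 (-0.43), 2 and 2 in HL-60 (0.092), and 1 and 2 in U937 (0.0090). *CCND2*, the remaining D cyclin, fell in all 4 lines, from 1070 ± 20.7 to 217 ± 27.9 in MOLM-14, a difference of -2.31, and with differences of -0.93 in U937, -0.65 in HL-60 and -0.72 in KG-1. *CCNE2*, cyclin E2, differed by -5.01 in MOLM-14 and -0.58 in KG-1, rose by 0.60 in HL-60 and was not called in U937 (-0.12). *CCNE1*, cyclin E1, fell in MOLM-14 (-3.42), KG-1 (-1.10) and U937 (-0.38), and was not called in HL-60 (0.092). Its U937 call was lost without U937 R406 replicate 3 (-0.34, adjusted p = 0.0518). *CCNA1*, a cyclin A of germ cells that is also expressed in myeloid leukemia, rose by 2.25 in MOLM-14, 1.82 in KG-1 and 0.65 in U937 and fell by 0.33 in HL-60, where the arrays overlapped. That HL-60 call was lost without HL-60 DMSO replicate 1 (-0.32, adjusted p = 0.0730) or 3 (-0.25, adjusted p = 0.155), without HL-60 R406 replicate 1 (-0.21, adjusted p = 0.199) and with only the HL-60 arrays (adjusted p = 0.117).

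The downstream lists had most of their calls in MOLM-14 and KG-1. Of 19 measured E2F target genes of DNA replication, 19 fell in MOLM-14 (median -2.75), 18 in KG-1 (-1.16), 1 in U937 (0.044) and 1 in HL-60 (0.042). The 1 of 19 in U937 and in HL-60 is near the share of all genes called lower there. *UNG*, a uracil DNA glycosylase, was the one that fell in all 4 lines (-3.02 in MOLM-14, -1.498 in KG-1, -0.28 in U937 and -0.39 in HL-60). Its U937 call was lost without U937 DMSO replicate 1 (-0.23, adjusted p = 0.136) or 3 (-0.26, adjusted p = 0.0973) and without U937 R406 replicate 1 (-0.28, adjusted p = 0.0734), 2 (-0.28, adjusted p = 0.0719) or 3 (-0.27, adjusted p = 0.0817). *MCM7* of the replicative helicase fell in MOLM-14 (-2.18) and KG-1 (-1.16), and was 0.054 in U937 and 0.050 in HL-60, neither called. Of 11 measured RB family and E2F genes, 2 rose and 6 fell in MOLM-14 (-0.23), 2 and 4 in KG-1 (-0.16), 0 and 1 in U937 and 0 and 0 in HL-60. *TFDP1*, the partner of E2F proteins, fell in MOLM-14 (-1.83) and KG-1 (-1.37). *RBL2*, the p130 relative of the retinoblastoma protein, rose by 0.73 and 1.03 in these lines, and *LIN37* of the DREAM complex, which represses cell cycle genes in quiescence, by 1.15 and 0.81. *E2F6* fell in MOLM-14 (-0.90) and KG-1 (-0.49). Of 8 genes of the CDK activating kinase and of the phosphatases and kinases that set CDK phosphorylation, 1 rose and 6 fell in MOLM-14 (-0.82), 0 and 5 in KG-1 (-0.32), 3 and 0 in HL-60, and 2 and 0 in U937. *CDC25A*, a phosphatase that activates CDKs, fell in MOLM-14 (-2.95) and KG-1 (-1.36). The kinases of the list that inhibit CDKs fell in these lines too. *WEE1* differed by -1.57 in MOLM-14 and -0.58 in KG-1, and *PKMYT1* by -1.62 and -1.10.

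**Figure D5:**
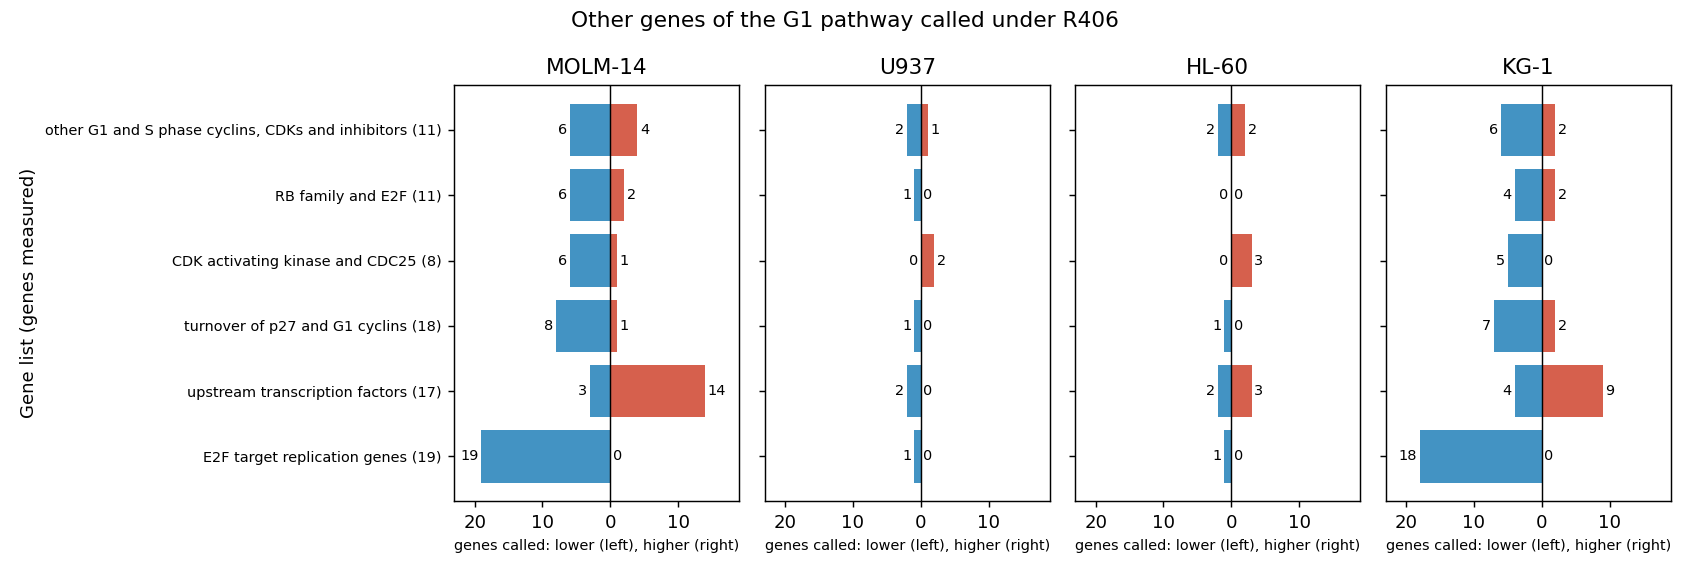
Number of genes of each pathway list called lower (left, blue) or higher (right, red) under R406 in each cell line, with the number measured in parentheses. The E2F target list has 19 lower in MOLM-14 and 18 in KG-1, against 1 in U937 and 1 in HL-60.

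Genes upstream of the 8 were counted likewise. Of 18 genes for the turnover of p27 and the G1 cyclins, 1 rose and 8 fell in MOLM-14 (-0.15), 2 and 7 in KG-1 (-0.14), 0 and 1 in U937 (-0.056) and 0 and 1 in HL-60 (-0.011). *SKP2*, the ubiquitin ligase subunit that directs p27 to degradation, fell in MOLM-14 (-2.38) and KG-1 (-1.72). It was not called in U937 (-0.45, adjusted p = 0.0566) or HL-60 (-0.34, adjusted p = 0.156). Under 11 of 32 settings the U937 value was called (adjusted p from 0.00357 to 0.0453), among them the leaving out of MOLM-14 R406 replicate 1 or 2 or KG-1 R406 replicate 2 or 3. The HL-60 value was called with the mean of probe sets (-0.43, adjusted p = 0.0115), with only the HL-60 arrays in the fit (adjusted p = 0.0168) and without KG-1 R406 replicate 2 (adjusted p = 0.0348). *CKS1B*, its cofactor, fell in MOLM-14 (-1.68) and KG-1 (-0.78). *CUL4A*, a cullin of another ubiquitin ligase, fell in all 4 lines (-0.58 in MOLM-14, -0.22 in U937, -0.41 in HL-60 and -0.45 in KG-1). Its U937 call was lost without U937 DMSO replicate 1 (-0.20, adjusted p = 0.0974) or 3 (-0.1996, adjusted p = 0.106), without U937 R406 replicate 2 (-0.19, adjusted p = 0.126) or 3 (-0.21, adjusted p = 0.0822), with repeated quantile normalization (adjusted p = 0.0588) and with only the U937 arrays (adjusted p = 0.0504). Of 17 transcription factors that act on these genes, 14 rose and 3 fell in MOLM-14 (0.47), 9 and 4 in KG-1 (0.27), 3 and 2 in HL-60 (0.016), and 0 and 2 in U937 (-0.024). *MYC* fell in all 4 lines (-3.38 in MOLM-14, -2.11 in KG-1, -0.80 in U937 and -0.62 in HL-60). *FOXO3*, a factor that activates *CDKN1B*, rose in MOLM-14 (1.07) and KG-1 (0.40), and its 0.11 in U937 and 0.10 in HL-60 were not called. *SMAD3* rose by 1.89 in MOLM-14 and 0.38 in KG-1 and fell by 0.33 in HL-60, and its KG-1 value was -0.010 (adjusted p = 0.936) with the mean of its probe sets. *EGR1* fell in MOLM-14 (-3.45) and U937 (-1.42), rose in HL-60 (3.69) and was not called in KG-1 (-0.031).

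The genes most like each of the 8, by Pearson correlation over the 24 arrays after line means were subtracted, were named for description only, since the points share lines and treatments. *CDK4* was most like *BAG2* (0.994), *TMEM97* (0.994) and *NME1* (0.992). *CDKN1C* was most like *KDM3A* (0.990), *C11orf21* (0.988) and *LYL1* (0.986), and *CDKN1B* like *JMJD1C* (0.975), *BLTP1* (0.974) and *PCM1* (0.970). Closest to *CDKN2D* was *BRD8* (0.935), to *CCND3* *CD300A* (0.924) and to *RB1* *ARPC3* (0.911). *CDK6* and *CCND1* had no gene above 0.802 (*SMARCC1*) and 0.775 (*DUSP14*).

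Some measures of the arrays moved with these results, and their part in the results was not tested. KG-1 R406 replicate 2 stood apart, with an SD of 0.180 from its group mean over all genes against 0.0880 to 0.161 on the other arrays. Without it the KG-1 differences were 1.48 for *CDKN1C*, -1.09 for *CDK4*, 0.76 for *CDKN1B*, -0.53 for *CCND3* and 0.90 for *CDKN2D*, and *RB1* was called, which made 4 genes higher and 2 lower. The pathway lists in KG-1 then had 1 higher and 5 lower (cyclins, CDKs and inhibitors), 2 and 3 (RB family and E2F), 2 and 4 (CDK activating kinase and CDC25), 2 and 7 (turnover), 7 and 2 (transcription factors) and 1 and 18 (E2F targets). Without that array, counts in U937 and HL-60 moved as well: cyclins, CDKs and inhibitors called higher went from 1 to 3 in U937 and from 2 to 4 in HL-60, turnover genes called lower from 1 to 3 in U937 and from 1 to 2 in HL-60, and E2F targets called higher from 0 to 2 in U937 and from 0 to 1 in HL-60. Turnover genes called higher in U937 and RB family and E2F genes called in either direction in HL-60 went from 0 to 1 each. The 3' to 5' log2 ratio of *ACTB* was higher with R406 by 0.34 in MOLM-14 and 0.12 in KG-1 and differed by -0.13 in HL-60 (2-sided exact permutation p = 0.1 each, the smallest that 3 against 3 can give) and by -0.039 in U937 (exact p = 0.6). The *GAPDH* value differed by 0.078 in MOLM-14 (exact p = 0.1), by 0.10 in KG-1 (exact p = 0.1), by -0.011 in HL-60 (exact p = 0.9) and by -0.0058 in U937 (exact p = 1). Of 3 progenitor markers, 2 rose in MOLM-14 (summed intensity 101 to 119 with DMSO and 635 to 754 with R406) and 3 in KG-1 (3349 to 3753 and 6192 to 7134), while 2 fell in HL-60 (65.6 to 67.4 and 42.8 to 48.1) and 0 were called in U937. The MOLM-14 rise was that of *HLA-DRA* (mean 77.1 with DMSO and 527 with R406) and *KIT* (17.9 and 144), while *CD34* read 17.0 and 15.6. Of 4 promyelocyte markers, 3 fell in MOLM-14 (7176 to 7784 and 4414 to 4765) and 4 in HL-60 (4189 to 4674 and 1136 to 1211), 1 rose in U937 (9574 to 9968 and 10487 to 11389), and 1 rose and 1 fell in KG-1 (188 to 213 and 113 to 141). Of 4 measured monocyte markers, 2 rose and 1 fell in HL-60 (777 to 866 and 1298 to 1389), 2 rose in U937 (184 to 188 and 261 to 297), 2 rose and 1 fell in MOLM-14 (394 to 411 and 382 to 397) and 2 fell in KG-1 (526 to 555 and 165 to 175). *PTPRC*, the leukocyte marker CD45, read 444 to 1033 in the DMSO means of all 4 lines. In the same means *CEBPA* read 468 to 2240 and *SPI1* only 15.1 to 35.4. *MPO* read 6416 in HL-60, against 44.0 in MOLM-14, 28.5 in KG-1 and 10.9 in U937. *CD34* read 613 in KG-1 and 17.0 to 18.1 in the other lines. *CD14* read 279 in HL-60, against 7.40 in U937, 7.20 in MOLM-14 and 5.56 in KG-1. By the sums above, promyelocyte markers with DMSO were higher in U937 than in HL-60, and monocyte markers lower. The promyelocyte difference came mostly through *CTSG*, at 6414 in U937 and 817 in HL-60. *ELANE* (2944 and 2642) and *AZU1* (186 and 160) were closer, and *PRTN3* was lower in U937 (258 and 785). *CD14* and these sums go against the usual names of U937 and HL-60. *MPO* in HL-60 and *CD34* in KG-1 go with the usual names. The summed level of 4 fibroblast and epithelial markers was 38.3 to 42.2 in KG-1 with DMSO and 125 to 217 with R406, through *COL3A1* alone, while *EPCAM* and *KRT19* were at 5.05 with R406. B cell and erythroid sums stayed at or below 49.0 in all groups. The sum of 5 T and NK cell markers was higher, at 831 to 859 in U937 with DMSO and 959 to 1015 with R406. It was 313 to 319 and 518 to 654 in KG-1, 174 to 197 and 306 to 340 in MOLM-14, and 176 to 183 and 149 to 162 in HL-60. Of these markers, 1 rose in MOLM-14 and KG-1 each, 1 fell in HL-60 and 0 were called in U937. *NKG7* gave most of the sum, with DMSO means of 811 in U937, 255 in KG-1, 146 in MOLM-14 and 141 in HL-60.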

How the data were processed

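Arrays of the 24 samples were made from total RNA, per the labels. The deposited intensity values were made by the authors with RMA (version not given in the sources used here), per the submitters' processing notes. Their range of 3.41 to 12686 places them on a linear scale. Groups came from the labels; the treatment protocol gives R406 in µM, which is used here, and the series text in mM. Of 22277 probe sets, 62 controls, 568 with several symbols and 1923 with none listed were left out. One model with 8 group means was fitted to log2(deposited intensity + 1) with limma 3.58.1 in R 4.3.3 (16 residual degrees of freedom), with no filter on dim genes. The probe sets of CCND1, CDK4 and CDKN2D used here carry the suffix s_at, so they can bind related transcripts.

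The genes, pathway lists, markers and tests were chosen with earlier results of these data known, so no list is independent evidence. From each pathway list, up to 4 genes with the smallest F test p-value for R406 in any line could be named, plus the 3 genes most correlated with each of the 8. Alternatives were repeated quantile normalization, median centring, a pseudocount of 16, the dimmest 33.3% of genes left out, the mean of probe sets, a trended robust variance, a replicate block, single-line fits and leaving out each array. Replicate numbers were not treated as pairs, since the labels do not say that they pair samples. Same-numbered R406 and DMSO arrays did not deviate together (12 pairs, correlations -0.085 to 0.069), which does not settle whether cultures were paired. The model was tested on simulated data.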

Additional observations from a re-analysis of the deposited data

Results flagged for a closer look

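The R406 effect differed between the 4 lines, by limma's moderated F test adjusted over all genes, for 6 of the 8 genes, against 54.9% of all genes. The adjusted p was 3.77e-12 for *CDK4*, 6.45e-12 for *CDKN1C*, 7.84e-12 for *CCND3*, 8.30e-06 for *CDKN1B*, 0.0376 for *CCND1* and 0.0426 for *RB1*. *CCND3* alone had called changes of both signs, higher in HL-60 in 3 of 3 arrays and lower in MOLM-14 and KG-1 in 3 of 3 arrays each. With 3 arrays a group, single arrays were not tested for outlying values.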

How the results depend on the processing

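The 8 genes' values were recomputed under 35 settings, which gave 1760 values. Of these, 1674 kept their direction and side of the threshold, 12 uncalled values changed sign and stayed uncalled, 59 lost a call, 15 gained one and 0 called values changed sign. Of 40 called results, 32 were kept under every setting run. The number of genes called higher in U937 was 1 in place of 2 with median centring, with a replicate block and with only the U937 arrays in the fit, where *CDKN1B* lost its call. The number called lower in HL-60 was 1 in place of 2 with a pseudocount of 16, where *CDK6* lost its call. With 1 array left out in turn, both counts ran from 1 to 2. The number called higher in KG-1 was 4 in place of 3, through *RB1*, under 5 settings. With the replicate block, *CDKN1B* in U937 kept its value of 0.26 at an adjusted p of 0.0533, the difference between lines lost its call for *CCND1* (adjusted p = 0.0598) and *RB1* (adjusted p = 0.0589), and *CDK6* gained one (adjusted p = 0.00791). The labels do not say whether replicate numbers pair the cultures. Of 12 R406 arrays, 4 correlated best with the DMSO array of their own number, which cannot show that cultures were not set up in pairs. The pathway genes were run under the same settings after results were seen. Among the named pathway genes, 18 recomputed values lost a call, 21 gained one and 1 reversed: the R406 effect of *SMAD3* in KG-1 turned from 0.38 to -0.010 with the mean of its probe sets. Of 48 list counts, 22 moved by over 1.5 times under at least 1 setting, the most often under 16 of 32: the CDK activating kinase and CDC25 genes called higher in U937 (2, range 0 to 2) and the turnover genes called lower in U937 (1, range 0 to 3). With the replicate block the U937 calls of *UNG* (adjusted p = 0.0789) and *CUL4A* (adjusted p = 0.0556) were lost. Median centring moved the share of higher genes among all called in U937 from 53.0% to 40.7% and in KG-1 from 53.0% to 44.1%. The share moved from 55.4% to 57.6% in MOLM-14 and from 47.5% to 45.9% in HL-60. The causes were not tested. Intensities of *CCND1* and *CDKN1C* near or below the array medians limit their fold changes, since RMA and the added 1 compress dim values.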
